A study of Homo sapiens with 12 samples.

Results

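The mechanistic target of rapamycin complex 1 (mTORC1) is a kinase complex that turns on protein synthesis and cell growth when nutrients and growth signals are present. Its regulators described here are 10 genes listed by symbol, of which 9 have a row among the 17786 genes of the count table: DDIT4, SESN1, SESN2, SESN3, EIF4EBP1, RRAGC, FNIP1, FLCN and TSC2. RRAGD, which encodes a Rag GTPase, was not analysed here. All 9 passed the filter on low counts, and their levels come from RNA sequencing of 12 libraries of K562, an established human chronic myelogenous leukaemia line. The libraries form 3 groups of 4. Cells were given 2 mM alpha-ketobutyrate (AKB) for 24 h, given 2 mM pyruvate for 24 h, or left untreated, and all grew in RPMI-1640 with fetal bovine serum and glutamine. AKB and pyruvate are alpha-keto acids that accept electrons when they are reduced by lactate dehydrogenase, and the carbon chain of AKB is the longer one.

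In the nutrient arm of this pathway, heterodimers of Rag GTPases bring mTORC1 to the lysosome, and sestrins hold that arm down when leucine is scarce. In the growth factor arm, the TSC complex, of which TSC2 is the catalytic subunit, switches off the GTPase Rheb, which activates mTORC1 at the lysosome. DDIT4, also called REDD1, acts through the TSC complex and is induced by hypoxia and by the integrated stress response, whose transcription factor ATF4 also induces SESN2 and EIF4EBP1. The product of EIF4EBP1 is a substrate of mTORC1 that represses cap-dependent translation until it is phosphorylated. Folliculin (FLCN) and its partner FNIP1 act as a GTPase-activating complex on RagC, which RRAGC encodes, and thereby govern the lysosomal transcription factors TFEB and TFE3. Messenger RNA levels do not report the activity of any of these proteins.

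The libraries held between 15353200 and 21301073 counts each. Gene levels are given as CPM, counts scaled to library size, with sizes adjusted by the trimmed mean of M-values. All 8 markers listed for K562 were present, with a summed level of 14800 to 16700 CPM with AKB, 11100 to 13100 CPM with pyruvate and 13500 to 15400 CPM in untreated cells. Summed T-cell markers did not exceed 3.49 CPM and summed B-cell markers did not exceed 1.85 CPM in any library, whereas the summed monocyte and granulocyte list, mainly LYZ, lay at 42.1 to 52.6 CPM with AKB, 28.5 to 36.3 CPM with pyruvate and 30.3 to 37.5 CPM in untreated cells. The summed epithelial list, mainly KRT8, was the highest of the lists of other cell types, at 434 to 504 CPM with AKB, 487 to 649 CPM with pyruvate and 423 to 462 CPM in untreated cells, and the summed fibroblast list lay at 7.49 to 12.2 CPM over all libraries. The part of these marker differences in the results was not tested. In bulk RNA, fewer cells of a type and less RNA per cell cannot be told apart. Pyruvate replicates 3 and 4 stood apart from the other 10 libraries. In them the deviation of a gene's level from its mean over the libraries increased with the GC content of its transcript, by 0.332 and 0.357 on the log2 scale per 10 percentage points of GC, against slopes of −0.155 to 0.0136 in the others. Results for the 9 genes that involve pyruvate are therefore also given without those libraries or with an offset that takes out the GC trend of every library. For other genes such a value is given where it loses the call or moves the fold change by over 1.5 times.

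The windows before the RefSeq starts of DDIT4, SESN2, SESN3 and FNIP1 are shown because DDIT4 and SESN2 had their lowest levels in the same libraries, SESN3 differed between the compounds, and FNIP1 holds the E-box core of the lysosomal gene network. Sequences are from RefSeq on GRCh38.p14, in the 5′ to 3′ direction of the gene. Capitals mark ACGTG, the core of the element bound by hypoxia-inducible factors, in DDIT4, and CACGTG, the E-box core of the element bound by TFEB and TFE3, in FNIP1. The windows are chr10:72273674-72273919 on the plus strand for DDIT4, chr1:28259268-28259517 on the plus strand for SESN2, chr11:95232542-95232725 on the minus strand for SESN3 and chr5:131797064-131797267 on the minus strand for FNIP1.
DDIT4: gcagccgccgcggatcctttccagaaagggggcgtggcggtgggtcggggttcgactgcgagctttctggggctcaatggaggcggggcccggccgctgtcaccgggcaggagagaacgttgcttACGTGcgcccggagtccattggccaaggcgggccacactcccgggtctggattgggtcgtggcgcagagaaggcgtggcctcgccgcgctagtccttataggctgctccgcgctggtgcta
SESN2: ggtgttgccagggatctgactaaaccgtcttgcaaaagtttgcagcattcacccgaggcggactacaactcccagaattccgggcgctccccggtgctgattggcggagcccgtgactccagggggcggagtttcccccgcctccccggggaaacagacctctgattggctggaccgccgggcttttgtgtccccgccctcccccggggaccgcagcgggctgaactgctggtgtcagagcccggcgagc
SESN3: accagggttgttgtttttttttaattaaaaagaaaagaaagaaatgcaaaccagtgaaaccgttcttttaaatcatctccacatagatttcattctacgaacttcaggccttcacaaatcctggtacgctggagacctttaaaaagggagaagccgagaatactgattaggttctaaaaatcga
FNIP1: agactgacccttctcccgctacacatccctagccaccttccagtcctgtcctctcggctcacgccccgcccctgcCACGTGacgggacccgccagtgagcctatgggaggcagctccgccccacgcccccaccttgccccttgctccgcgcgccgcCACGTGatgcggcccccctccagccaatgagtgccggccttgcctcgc

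Of the 10 listed genes, 8 had a RefSeq window of 250 bases before to 50 bases after the start, and EIF4EBP1 and RRAGD are named only. Both strands were searched for 4 motifs. ACGTG lay in the DDIT4 window, with its first base 125 bases before the start, and 21.4% of 35114 RefSeq windows of the same length hold it. CACGTG lay at 2 places in the FNIP1 window, 175 and 94 bases before the start, and at 1 place in the RRAGC window, 112 bases before the start, and 7.26% of all windows hold it. Each CACGTG also contains ACGTG on each strand. TGATGNAA, the core of the response element bound by ATF4 with C/EBP partners, is in 3.62% of all windows and GTAAACA, a FOXO motif, is in 3.42%. These letters occurred in none of the 8 windows. The SESN3 window has 35.9% GC, against 65.6% to 71.9% in the printed SESN2, DDIT4 and FNIP1 windows and the same stretch of RRAGC. A match describes letters and is not evidence of binding.

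In untreated cells the genes covered a wide range of levels. Per kilobase of longest transcript, DDIT4 had the highest level at 95.5 ± 6.09 CPM per kilobase (SD, n = 4), followed by EIF4EBP1 at 41.3 ± 2.52, RRAGC at 18.1 ± 1.56, SESN2 at 17.2 ± 0.462 and FLCN at 11.1 ± 0.376 CPM per kilobase. FNIP1 had 10.5 ± 0.576, TSC2 10.4 ± 0.864, SESN1 6.41 ± 0.607 and SESN3 0.891 ± 0.0369 CPM per kilobase. The library ranges of RRAGC and SESN2 overlapped, as did those of FLCN and FNIP1 and of FNIP1 and TSC2, so that order is not resolved. SESN3 was the lowest, and its range was separate from that of SESN1, the next gene up.

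**Figure D1:**
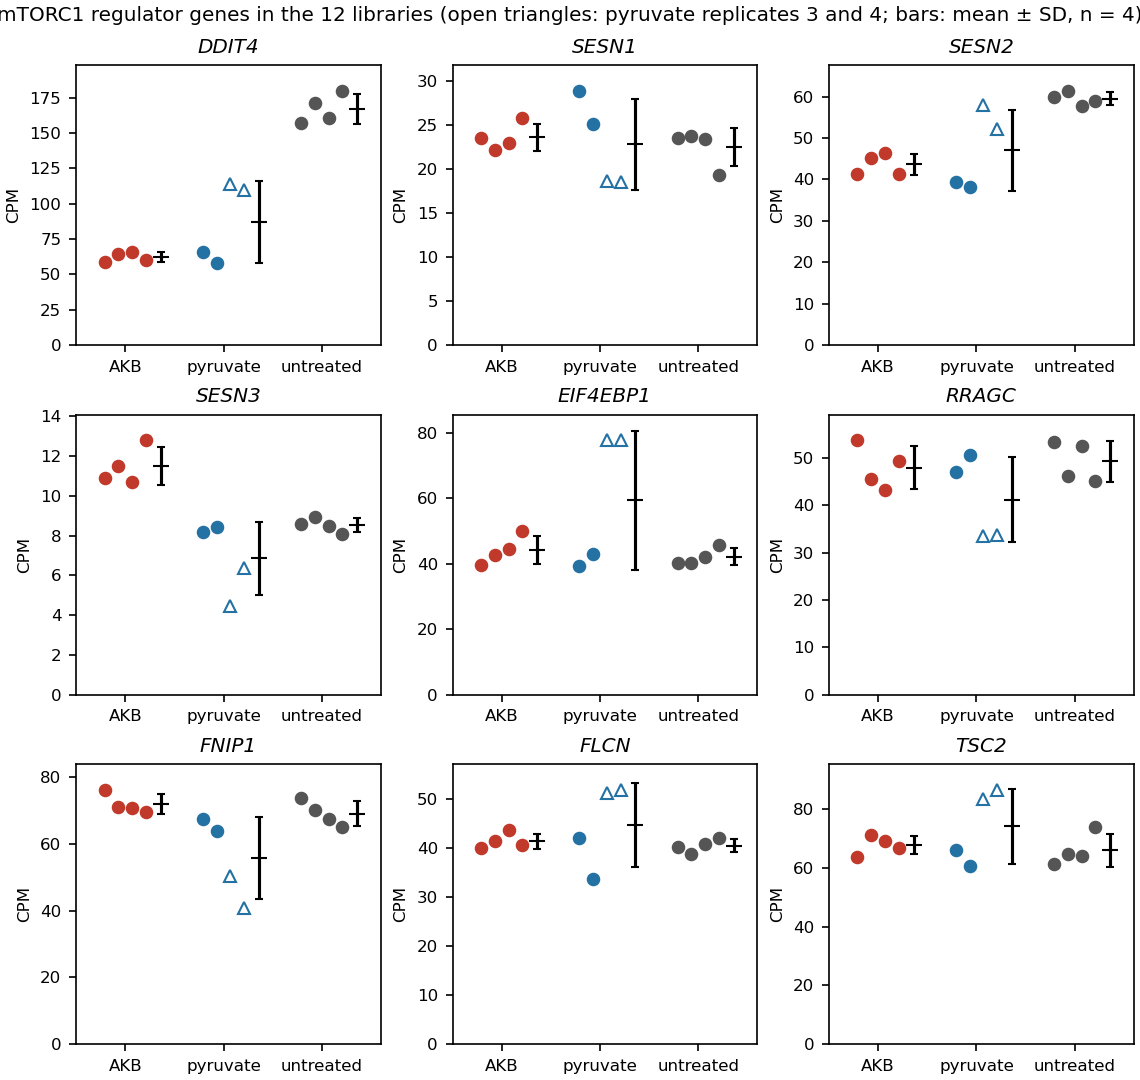
CPM (y axes, from 0) of 9 mTORC1 regulator genes in each library of the AKB, pyruvate and untreated groups; open triangles are pyruvate replicates 3 and 4, and bars give the mean ± SD of 4 libraries. DDIT4 lies between 59.1 and 65.9 CPM with AKB and between 157 and 180 CPM in untreated cells, and in most panels the open triangles lie away from the other pyruvate libraries.

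DDIT4 transcripts were lower with AKB. DDIT4 (ENSG00000168209) lies at chr10:72273920-72276036 on the plus strand in GENCODE 29 on GRCh38. AKB libraries 1 to 4 had 59.1, 64.6, 65.9 and 60.1 CPM, against 157, 171, 161 and 180 CPM in untreated libraries. The groups were far apart, with every AKB library below every untreated one. DDIT4 was 2.67-fold lower with AKB, a log2 fold change of −1.42 with a standard error of 0.186 and a 95% interval of −1.82 to −1.01 (adjusted p = 0.0023 by edgeR's quasi-likelihood test with Benjamini-Hochberg adjustment over 13598 genes). DDIT4 was called in all 23 alternative analyses. It ranked 30 by p among all genes tested.

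DDIT4 was also lower with pyruvate. Pyruvate libraries 1 to 4 had 65.7, 58.3, 114 and 110 CPM, against 157 to 180 CPM in untreated libraries. The first 2 pyruvate libraries were at the level of the AKB libraries, and replicates 3 and 4 lay between the AKB and the untreated levels. Across all libraries DDIT4 was 1.92-fold lower with pyruvate (log2 −0.938, SE 0.183, 95% interval −1.34 to −0.539, edgeR adjusted p = 0.0317). Without pyruvate replicates 3 and 4 the log2 fold change was −1.43 (edgeR adjusted p = 7.29e-06), and with the GC-content offset it was −1.18 (edgeR adjusted p = 2.93e-05). The call over all libraries is sensitive to which libraries are fitted. Leaving out any 1 of the 4 AKB or 4 untreated libraries gave edgeR adjusted p-values of 0.0524 to 0.103, and leaving out any 1 pyruvate library gave 0.019 to 0.0472. AKB libraries act on this comparison only through the shared estimate of the spread, the scaling and the filter. The call was also lost when only the pyruvate and untreated libraries were fitted.

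Direct comparison of the compounds at the same dose and time found no DDIT4 call. The log2 fold change of AKB over pyruvate was −0.481 (95% interval −0.881 to −0.0814, edgeR adjusted p = 0.141). Without pyruvate replicates 3 and 4 it was 0.00943, with an interval of −0.154 to 0.173 (edgeR adjusted p = 0.959). With the GC-content offset it was −0.329 and passed the threshold (edgeR adjusted p = 0.0377), as it also did without pyruvate replicate 2 (log2 −0.63, edgeR adjusted p = 0.0268). Whether the compounds differ for DDIT4 therefore changes with the treatment of replicates 3 and 4. Levels adjusted for GC averaged 62.7 ± 2.04 CPM with AKB, 78.5 ± 13.8 CPM with pyruvate and 178 ± 4.11 CPM in untreated cells (SD, n = 4 each). DDIT4 reads may include reads of the antisense gene DDIT4-AS1, which overlaps it, since no strand setting is given in the sources used here.

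TSC2, the catalytic subunit of the complex through which DDIT4 acts, was not called in any comparison. AKB libraries had 63.8, 71.2, 69.1 and 66.9 CPM, pyruvate libraries 66.0, 60.6, 83.4 and 86.7 CPM and untreated libraries 61.3, 64.8, 64.2 and 73.9 CPM. Pyruvate replicates 3 and 4 were the highest of the 12, and the other 10 libraries were intermixed. The log2 fold change was 0.0371 for AKB (95% interval −0.202 to 0.276, edgeR adjusted p = 0.934) and 0.168 for pyruvate (95% interval −0.0698 to 0.406, edgeR adjusted p = 0.303). The pyruvate value for TSC2 was −0.0604 without replicates 3 and 4 and −0.0951 with the offset, called in neither. NTHL1 and PKD1 overlap TSC2 on the opposite strand.

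**Figure D2:**
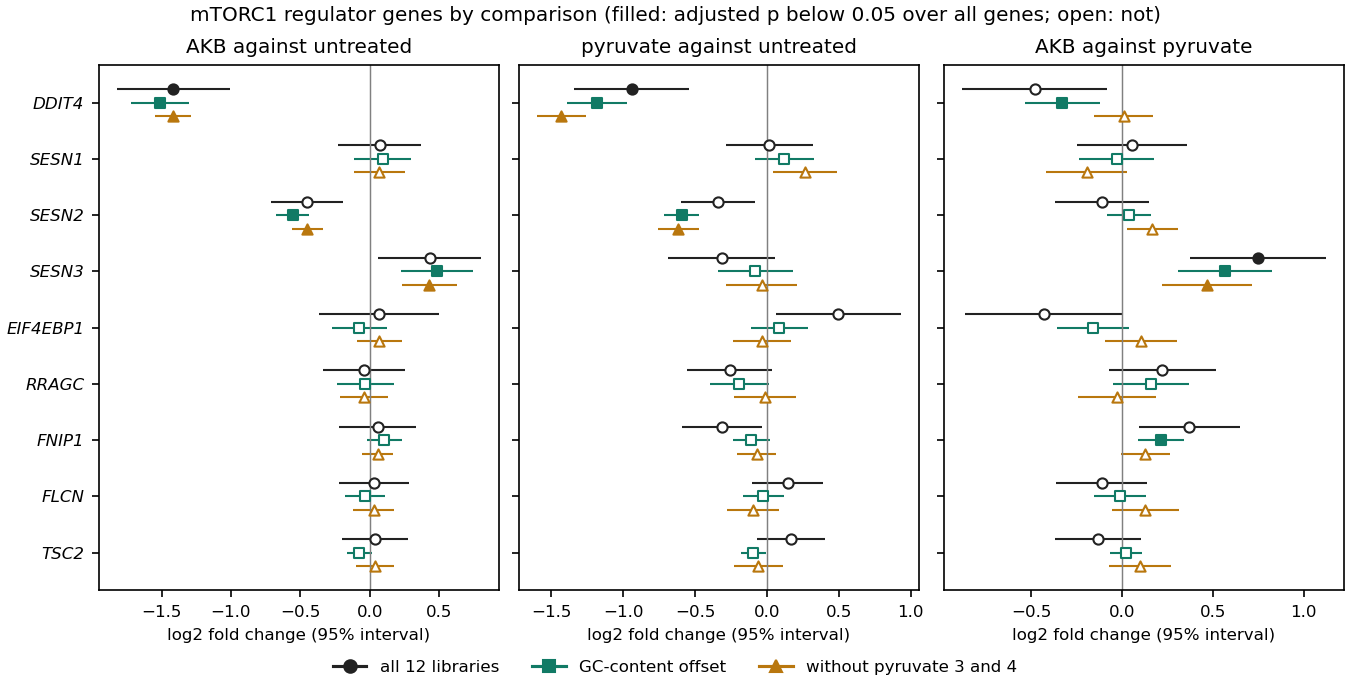
Log2 fold change (x axes) with its 95% interval for 9 mTORC1 regulator genes in 3 comparisons, over all 12 libraries (circles), with the GC-content offset (squares) and without pyruvate replicates 3 and 4 (triangles); filled symbols have an edgeR adjusted p below 0.05. DDIT4 is filled in all 3 analyses of each compound against untreated cells, SESN3 in all 3 of AKB against pyruvate, and SESN2 is filled against untreated cells with the offset or without those libraries.

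SESN2, the leucine sensor that ATF4 induces, had a lower level in every AKB library than in every untreated library, without passing the threshold. AKB libraries 1 to 4 had 41.3, 45.1, 46.4 and 41.4 CPM, against 59.8, 61.4, 57.6 and 58.9 CPM in untreated libraries. The log2 fold change was −0.449 (SE 0.12, 95% interval −0.708 to −0.189, edgeR adjusted p = 0.0897). SESN2 passed with the GC-content offset (log2 −0.556, edgeR adjusted p = 0.000103), without pyruvate replicates 3 and 4 (log2 −0.449, edgeR adjusted p = 0.000566) and in 7 of 23 alternatives in all, among them DESeq2 (adjusted p = 0.0183) and edgeR without pyruvate replicate 2 (adjusted p = 0.0382) or 3 (adjusted p = 0.0444). Leaving out pyruvate libraries acts on this comparison only through the shared estimate of the spread, the scaling and the filter, since the AKB and untreated counts stay as they are.

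With pyruvate, SESN2 showed the split seen for DDIT4. Pyruvate libraries 1 to 4 had 39.4, 38.1, 58.0 and 52.2 CPM, so that replicates 1 and 2 lay below every AKB library and replicate 3 lay within the untreated range. The log2 fold change against untreated cells was −0.339 (95% interval −0.598 to −0.0806, edgeR adjusted p = 0.106). It was −0.594 with the GC-content offset (edgeR adjusted p = 9.13e-05) and −0.616 without replicates 3 and 4 (edgeR adjusted p = 0.000955). GC-adjusted levels were 43.7 ± 1.65 CPM with AKB, 42.6 ± 2.16 CPM with pyruvate and 64.3 ± 4.01 CPM in untreated cells (SD, n = 4 each). AKB over pyruvate had a log2 fold change of −0.109 (95% interval −0.369 to 0.15, edgeR adjusted p = 0.585), which was 0.038 with the offset and 0.167 without replicates 3 and 4 (edgeR adjusted p = 0.69 and 0.162).

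SESN3, which FOXO factors induce, differed between the compounds. AKB libraries 1 to 4 had 10.9, 11.5, 10.7 and 12.8 CPM, against 8.17, 8.42, 4.44 and 6.39 CPM in pyruvate libraries. Untreated libraries had 8.60, 8.94, 8.46 and 8.08 CPM. All 4 AKB libraries were above all other libraries, and pyruvate replicates 1 and 2 lay close to the untreated levels. SESN3 was 1.68-fold higher with AKB than with pyruvate (log2 0.748, SE 0.171, 95% interval 0.376 to 1.12, edgeR adjusted p = 0.042). The log2 fold change was 0.566 with the GC-content offset (edgeR adjusted p = 0.00963) and 0.469 without pyruvate replicates 3 and 4 (edgeR adjusted p = 0.0425). The call was lost when any 1 AKB library, any 1 untreated library or pyruvate replicate 3 or 4 was left out, with edgeR adjusted p-values of 0.0546 to 0.11, and when low counts were not filtered (adjusted p = 0.056). It was also lost when only the AKB and pyruvate libraries were fitted, without the untreated ones.

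Against untreated cells SESN3 had a log2 fold change of 0.432 with AKB (95% interval 0.0628 to 0.801, edgeR adjusted p = 0.289). This comparison passed without pyruvate replicates 3 and 4 (edgeR adjusted p = 0.0148) and with the GC-content offset (log2 0.485, edgeR adjusted p = 0.0259). With pyruvate the log2 fold change was −0.316 (95% interval −0.688 to 0.0565, edgeR adjusted p = 0.229), and it was −0.0377 without replicates 3 and 4 and −0.0817 with the offset. GC-adjusted levels were 11.1 ± 1.05 CPM with AKB, 7.48 ± 1.19 CPM with pyruvate and 7.93 ± 0.225 CPM in untreated cells. The antisense gene AP000787.1 spans SESN3 on the opposite strand, and since no strand setting is given, SESN3 counts may include its reads.

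SESN1, a p53 target, was not called in any comparison. AKB libraries had 23.5, 22.2, 23.0 and 25.8 CPM, pyruvate libraries 28.9, 25.1, 18.6 and 18.5 CPM and untreated libraries 23.5, 23.7, 23.4 and 19.3 CPM. Pyruvate replicates 3 and 4 were the lowest of the 12. For AKB the log2 fold change was 0.0714 (95% interval −0.231 to 0.373, edgeR adjusted p = 0.893) and for pyruvate it was 0.0159 (95% interval −0.286 to 0.318, edgeR adjusted p = 0.944), or 0.265 without replicates 3 and 4 and 0.122 with the offset. Thus the sestrin transcripts did not share a direction: SESN2 and SESN3 lay on opposite sides of the untreated level with AKB, though neither passed the threshold over all libraries.

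RRAGC encodes the only Rag GTPase among the 9 genes. It had 53.8, 45.6, 43.3 and 49.3 CPM in AKB libraries, 47.0, 50.7, 33.5 and 33.7 CPM in pyruvate libraries and 53.5, 46.3, 52.5 and 45.1 CPM in untreated libraries. Only pyruvate replicates 3 and 4 lay outside the range of 43.3 to 53.8 CPM that held the other 10 libraries. RRAGC had log2 fold changes of −0.0396 for AKB (95% interval −0.334 to 0.255, edgeR adjusted p = 0.945) and −0.26 for pyruvate (95% interval −0.555 to 0.0342, edgeR adjusted p = 0.214). Without those libraries the pyruvate value was −0.0134 (edgeR adjusted p = 0.969), and with the offset it was −0.191 (edgeR adjusted p = 0.215). The processed transcript AL139260.2 overlaps RRAGC by 20491 bases on the same strand and has no counts here.

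FLCN and FNIP1 form the complex that acts on RagC. FNIP1 had 76.3, 71.0, 70.7 and 69.5 CPM in AKB libraries, 67.5, 63.9, 50.5 and 40.9 CPM in pyruvate libraries and 73.8, 70.1, 67.4 and 65 CPM in untreated libraries. Every AKB library was above every pyruvate library for FNIP1, with a log2 fold change of 0.37 (95% interval 0.0926 to 0.648, edgeR adjusted p = 0.112). This value was 0.213 and passed with the GC-content offset (edgeR adjusted p = 0.0314), and it was 0.129 without pyruvate replicates 3 and 4 (edgeR adjusted p = 0.259). Its partner FLCN had 39.9, 41.3, 43.5 and 40.5 CPM in AKB libraries, 42.0, 33.6, 51.1 and 51.8 CPM in pyruvate libraries and 40.2, 38.7, 40.8 and 42.0 CPM in untreated libraries. FLCN was highest in pyruvate replicates 3 and 4, in which FNIP1 was lowest. Against untreated cells neither gene was called, with log2 fold changes of 0.0581 (FNIP1) and 0.0312 (FLCN) for AKB and of −0.312 (FNIP1) and 0.144 (FLCN) for pyruvate (edgeR adjusted p from 0.141 to 0.95). Without replicates 3 and 4 the pyruvate values were −0.0718 for FNIP1 and −0.097 for FLCN, and with the offset they were −0.108 for FNIP1 and −0.0249 for FLCN. MPRIP overlaps FLCN by 5468 bases on the opposite strand. On the same strand the protein-coding gene AC055811.2 overlaps FLCN by 24974 bases, and the protein-coding gene AC008695.1 overlaps FNIP1 by 155270 bases. Neither of these same-strand genes has counts here.

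EIF4EBP1, the translation repressor, had 39.7, 42.6, 44.4 and 50.0 CPM in AKB libraries, 39.3, 42.9, 77.7 and 77.7 CPM in pyruvate libraries and 40.3, 40.3, 42.1 and 45.8 CPM in untreated libraries. Replicates 3 and 4 of the pyruvate group stood alone at the top, and the other 10 libraries lay between 39.3 and 50.0 CPM. EIF4EBP1 had a log2 fold change of 0.0684 with AKB (95% interval −0.366 to 0.503, edgeR adjusted p = 0.933). With pyruvate it was 0.497 (95% interval 0.0643 to 0.93, edgeR adjusted p = 0.136), −0.0356 without replicates 3 and 4 (edgeR adjusted p = 0.907) and 0.0865 with the offset (edgeR adjusted p = 0.572). EIF4EBP1 is induced by ATF4 like DDIT4 and SESN2, but its AKB and untreated libraries overlapped.

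Of the 9 genes, 1 was called lower with AKB (DDIT4), where 0.603% of all genes tested were called lower. None was called higher by edgeR, DESeq2 or limma-voom, where 1.37% of all genes were by edgeR, and 1 had an unadjusted edgeR p below 0.05 in that direction. With pyruvate 1 was called lower (DDIT4; background 0.927%) and none higher by any of these tools (background 1.02%; 1 at an unadjusted edgeR p below 0.05). In AKB over pyruvate 1 was called higher (SESN3; background 1.94%) and none lower by any of these tools (background 1.19%; 1 at an unadjusted edgeR p below 0.05). The 4 AKB and 4 untreated libraries did not overlap for DDIT4, SESN2 and SESN3, as was so for 17.2% of all genes. Pyruvate and untreated libraries did not overlap for DDIT4 (10.9% of all genes), and AKB and pyruvate libraries did not overlap for SESN3 and FNIP1 (11.6% of all genes). The median log2 fold change of the 9 genes was 0.0371 with AKB, −0.26 with pyruvate and −0.109 for AKB over pyruvate, against 0.00609, −0.00819 and 0.0251 over all genes tested. With the GC-content offset the medians of the 9 genes were −0.0362 with AKB, −0.0951 with pyruvate and 0.0218 for AKB over pyruvate. Without pyruvate replicates 3 and 4 they were 0.0371 with AKB, −0.0604 with pyruvate and 0.104 for AKB over pyruvate, so that the sign of the last turned in both analyses. The comparisons share libraries, so they are not independent of each other.

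With the GC-content offset, AKB had 1 of the 9 called higher (SESN3; 4.2% of all genes) and 2 lower (DDIT4 and SESN2; 4.29% of all genes), and pyruvate had 2 lower (the same pair; 4.18%) and 0 higher (5.09%). In AKB over pyruvate the offset gave 2 higher (SESN3 and FNIP1; 6.93%) and 1 lower (DDIT4; 8.04%). When pyruvate replicates 3 and 4 were left out, AKB had 1 higher (SESN3; 4.86%) and 2 lower (DDIT4 and SESN2; 4.31%), and pyruvate had 2 lower (the same pair; 0.56%) and 0 higher (0.151%). AKB over pyruvate then had 1 higher (SESN3; 2.52%) and 0 lower (1.84%). DDIT4 and SESN2 were thus called lower with each compound in both of these analyses, and the call on DDIT4 between the compounds was made in the first of them but not in the second.

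Within the pyruvate group, GC-rich transcripts were higher and GC-poor ones lower in replicates 3 and 4, although the order within each set did not follow GC content. Transcripts of EIF4EBP1 (65.5% GC), TSC2 (60.5%), SESN2 (59.5%), DDIT4 (58.1%) and FLCN (55.8%) were all higher in replicates 3 and 4 than in 1 and 2, with log2 ratios of 0.919, 0.426, 0.507, 0.855 and 0.446 in that order. Those of RRAGC (44.9%), SESN1 (43.4%), FNIP1 (38.9%) and SESN3 (37.1%) were all lower, with log2 ratios of −0.54, −0.544, −0.524 and −0.614. After the GC-content offset, which is fitted to all genes, DDIT4 kept a log2 ratio of 0.431 and EIF4EBP1 one of 0.107. SESN2 was then at 0.0149 and RRAGC at −0.354. Over the 9 genes Pearson's r between GC content and the log2 ratio was 0.952 and Spearman's rho 0.833, given as a description, since all points share the same 4 libraries.

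**Figure D3:**
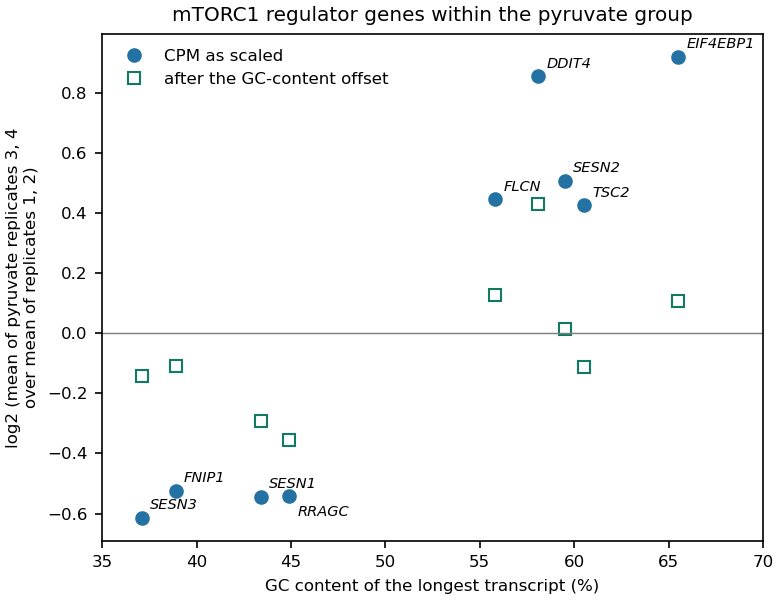
GC content of the longest GENCODE 29 transcript in percent (x axis) against the log2 ratio of mean CPM in pyruvate replicates 3 and 4 to that in replicates 1 and 2 (y axis) for 9 mTORC1 regulator genes, before (circles) and after (squares) the GC-content offset. The 5 genes above 55% GC lie above 0 and the 4 genes below 45% lie below it before the offset, and DDIT4 stays at 0.431 after it.

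The listed subunits of the machinery itself were not called by edgeR over all libraries, while other analyses called some of the mTOR complex genes. Of 10 genes of the mTOR complexes and 9 of the Rag and Ragulator complexes tested, none was called in any comparison by edgeR over all libraries without the offset. With the GC-content offset edgeR called 3 genes of the mTOR complexes lower with AKB (TELO2, TTI1 and MLST8), 2 lower with pyruvate (TELO2 and TTI1) and 2 lower in AKB over pyruvate (MLST8 and AKT1S1), all named after their values were seen. Over all genes the offset called 4.29% lower with AKB, 4.18% lower with pyruvate and 8.04% lower in AKB over pyruvate. Without pyruvate replicates 3 and 4 none of either list was called. At an unadjusted edgeR p below 0.05, the mTOR complexes had 0 higher and 1 lower with AKB, 2 higher and 2 lower with pyruvate, and 0 higher and 2 lower in AKB over pyruvate. The Rag and Ragulator genes had 0 in either direction with AKB, and 1 lower and 0 higher in each of the other comparisons. The shares of all genes at this unadjusted threshold were not counted. DESeq2 called 1 higher and 1 lower of the mTOR complexes with pyruvate and 1 lower in AKB over pyruvate, and limma-voom called none. Among 12 genes of GATOR and KICSTOR, which sit upstream of the Rag GTPases, WDR59, a GATOR2 subunit, was called higher in AKB over pyruvate (83.8 ± 2.12 CPM with AKB and 68.7 ± 3.19 CPM with pyruvate, edgeR adjusted p = 0.0453), a call lost without pyruvate replicates 3 and 4 (adjusted p = 0.0824). Over all libraries 1.94% of all genes were called higher in AKB over pyruvate. With the offset edgeR also called KPTN lower with AKB (4.29% of all genes). It called NPRL3 lower with pyruvate (4.18%) and higher in AKB over pyruvate (6.93%). Without pyruvate replicates 3 and 4 SEH1L was called lower with AKB, where 4.31% of all genes were. KPTN, NPRL3 and SEH1L were named after their values were seen.

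Of 20 mTORC1 substrates and translation genes, GRB10, a substrate of mTORC1 that dampens growth factor signalling, was lower with both compounds. It averaged 148 ± 5.89 CPM with AKB, 146 ± 5.76 CPM with pyruvate and 196 ± 7.65 CPM in untreated cells (SD, n = 4 each), with log2 fold changes of −0.404 (edgeR adjusted p = 0.00309) for AKB and −0.428 (edgeR adjusted p = 0.00358) for pyruvate. Both calls on GRB10 held when pyruvate replicates 3 and 4 were dropped and when the offset was used. EIF4G1, the scaffold of the cap-binding complex, was higher with pyruvate (756 ± 111 CPM, against 561 ± 31.4 CPM in untreated cells, edgeR adjusted p = 0.0452), a log2 fold change of 0.431 that was 0.236 with the offset and 0.241 without replicates 3 and 4, where the call was lost (adjusted p = 0.161). In AKB over pyruvate 2 were lower over all libraries, EIF4G1 (log2 −0.447, edgeR adjusted p = 0.0348) and the helicase EIF4A1 (log2 −0.225, edgeR adjusted p = 0.0457). Without pyruvate replicates 3 and 4 the EIF4G1 call was lost (log2 −0.257, adjusted p = 0.069). The offset gave 6 lower in AKB over pyruvate (EIF4B, EIF4G1, LARP1, EIF4A1, RPS6KB2 and MAF1, where 8.04% of all genes were) and 1 higher (PDCD4, 6.93%). With pyruvate it gave 3 higher (EIF4G1, RPS6 and RPS6KB2, 5.09%). Those of these genes not named before were named after their values were seen. In the list of 20 genes of PI3K, AKT and AMPK input, PIK3CD, a catalytic subunit of PI3K, was higher with AKB (48.8 ± 2.56 CPM, against 36.6 ± 1.62 CPM in untreated cells, edgeR adjusted p = 0.0105). PIK3CD and PRKAB2, a regulatory subunit of AMPK, were both higher in AKB over pyruvate (log2 0.305 and 0.566, edgeR adjusted p = 0.0406 and 0.0395), and the PRKAB2 call was lost without pyruvate replicates 3 and 4 (log2 0.382, adjusted p = 0.102).

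In the CLEAR network, the lysosomal genes under TFEB and TFE3, 25 genes were tested and few changed. CTSB, a lysosomal protease, was higher with AKB (72.9 ± 4.55 CPM, against 52.5 ± 3.34 CPM in untreated cells, edgeR adjusted p = 0.00519) and with pyruvate (65.2 ± 3.22 CPM, edgeR adjusted p = 0.0448, and 0.113 without pyruvate replicates 3 and 4). MAP1LC3B, an autophagosome protein, was lower with pyruvate (148 ± 22.7 CPM, against 205 ± 9.22 CPM in untreated cells, log2 −0.472, edgeR adjusted p = 0.0351, and log2 −0.301 without replicates 3 and 4). With AKB it had log2 −0.276 and was not called over all libraries (edgeR adjusted p = 0.212). Without pyruvate replicates 3 and 4 the AKB value was −0.277 and was called (edgeR adjusted p = 0.004). MAP1LC3B was not called in AKB over pyruvate (edgeR adjusted p = 0.229). LAMP1, a lysosomal membrane protein, was lower in AKB over pyruvate (log2 −0.295, edgeR adjusted p = 0.0368), a call lost without pyruvate replicates 3 and 4 (adjusted p = 0.0501). The median log2 fold change of the list was 0.0312 with AKB and 0.0603 with pyruvate. With the offset these medians were −0.0349 with AKB and −0.0249 with pyruvate, and without pyruvate replicates 3 and 4 they were 0.027 with AKB and −0.0241 with pyruvate.

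ATF4 and many of its targets were lower with both compounds, as DDIT4 was. ATF4 itself had 240, 247, 238 and 239 CPM in AKB libraries, 230, 249, 282 and 276 CPM in pyruvate libraries and 356, 332, 333 and 344 CPM in untreated libraries. All treated libraries lay below all untreated ones, with log2 fold changes of −0.5 (edgeR adjusted p = 0.0023) for AKB and −0.396 (edgeR adjusted p = 0.0174) for pyruvate. The ATF4 target list contains DDIT4, SESN2 and EIF4EBP1, and also ATF4 itself, which is counted among the genes called lower. Of its 26 tested genes, 17 were called lower with AKB (0.603% of all genes tested) and 16 were called lower with pyruvate (0.927% of all genes). None was higher by edgeR or DESeq2 in either, and at an unadjusted edgeR p below 0.05 0 were higher with AKB and 1 was with pyruvate. The list's median log2 fold changes were −0.516 for AKB and −0.486 for pyruvate. PSAT1, an enzyme of serine synthesis, averaged 104 ± 3.64 CPM with AKB, 88.4 ± 10.8 CPM with pyruvate and 206 ± 7.32 CPM in untreated cells (edgeR adjusted p = 0.000378 for AKB). ASNS, asparagine synthetase, averaged 206 ± 2.33 CPM with AKB, 169 ± 26.1 CPM with pyruvate and 385 ± 26.9 CPM in untreated cells (edgeR adjusted p = 0.000914 for AKB). With AKB the amino acid transporter SLC1A4 (log2 −0.542) and the tryptophanyl-tRNA synthetase WARS1 (log2 −0.519) also fell, each with an edgeR adjusted p of 0.000914. CTH, of cysteine synthesis, and ALDH1L2, of mitochondrial folate metabolism, fell with pyruvate by 1.05 and 1.16 on the log2 scale, and both were higher in AKB over pyruvate (log2 0.344 and 0.532, edgeR adjusted p = 0.0461 and 0.0159). The CTH call between the compounds was lost without pyruvate replicates 3 and 4 (log2 0.3, edgeR adjusted p = 0.094).

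**Figure D4:**
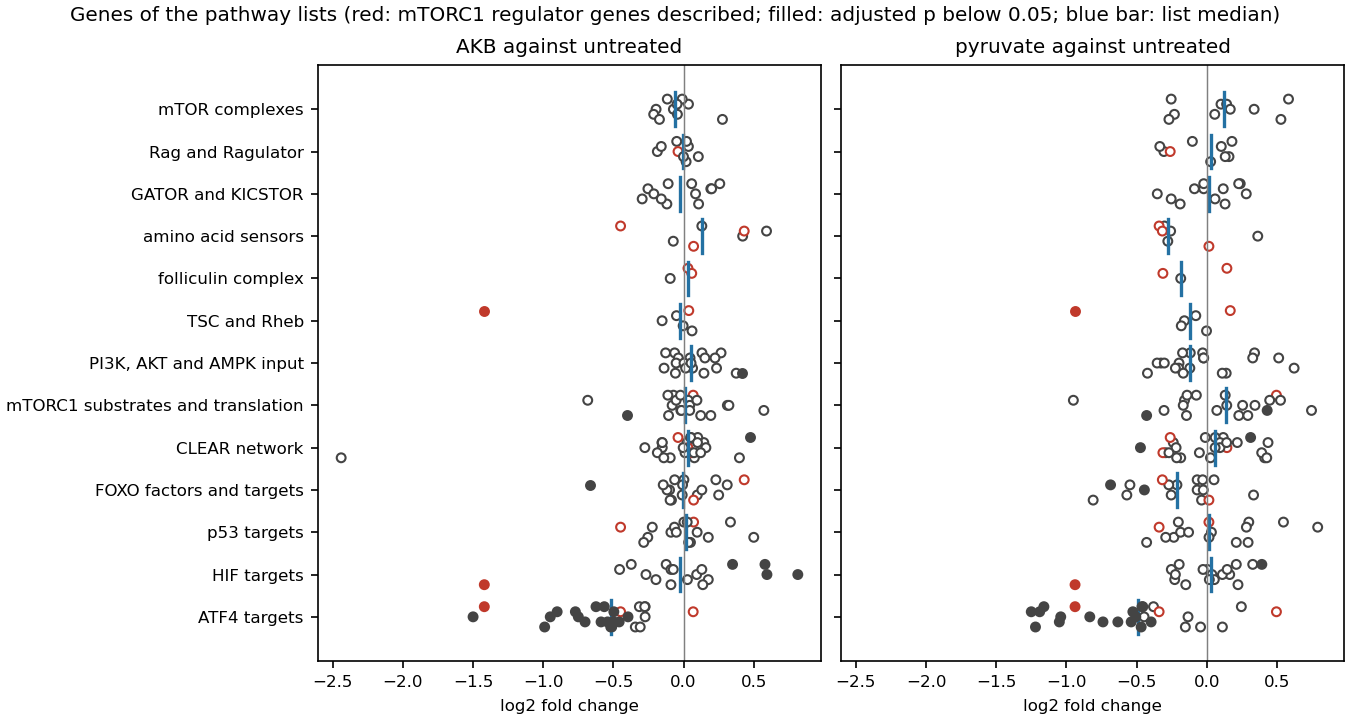
Log2 fold change (x axes) of each tested gene of the pathway lists (rows) with AKB and with pyruvate against untreated cells; filled points have an edgeR adjusted p below 0.05, red points are the 9 mTORC1 regulator genes and blue bars are list medians. The ATF4 target list has a median of −0.516 with AKB and −0.486 with pyruvate, and the mTOR complexes and the Rag and Ragulator genes have no filled point.

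The other inputs to these genes were described in the same way. Among 18 tested HIF targets, which include DDIT4, 4 were higher with AKB: ENO2, a glycolytic enzyme (24.4 ± 1.32 CPM, against 13.9 ± 0.837 CPM in untreated cells, edgeR adjusted p = 0.000914), PFKFB4, a regulator of glycolysis (log2 0.58), P4HA2, a collagen prolyl hydroxylase (log2 0.594), and ALDOC, an aldolase (log2 0.349). Over all genes tested 1.37% were called higher with AKB and 0.603% lower. Of the 18 HIF targets 9 had estimates above 0 with AKB and 9 below, with a median log2 fold change of −0.0232. DDIT4 was the only HIF target called lower by edgeR over all libraries, opposite to the 4 called higher. VEGFA, an angiogenic growth factor named after its values were seen, was also called lower with each compound when the offset was used and when pyruvate replicates 3 and 4 were dropped. BNIP3L, also named after its values were seen, was called higher with AKB in both of those analyses. With pyruvate ALDOC was higher (log2 0.393, edgeR adjusted p = 0.0206) and DDIT4 lower, where 1.02% of all genes were called higher and 0.927% lower. The list's median with pyruvate was 0.0283. The ALDOC call with pyruvate was lost without replicates 3 and 4 (log2 0.318, edgeR adjusted p = 0.0544), which left 0 HIF targets called higher with pyruvate in that analysis. When the offset was used, ALDOC was at log2 0.22 and was called higher with pyruvate, as was BNIP3L. ENO2 and P4HA2 were higher in AKB over pyruvate (log2 0.65 and 0.481), where 1.94% of all genes were called higher. P4HA2 lost that call without pyruvate replicates 3 and 4 (edgeR adjusted p = 0.0536).

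Of 17 tested FOXO factors and targets, edgeR over all libraries called 2 lower with pyruvate (0.927% of all genes) and 1 with AKB (0.603%). It called none higher with either (1.02% and 1.37%). The list's median was −0.212 with pyruvate (−0.0513 without replicates 3 and 4) and −0.00711 with AKB. FOXO3, a transcription factor that induces sestrins, was lower with pyruvate (39.8 ± 2.53 CPM, against 54.2 ± 3.10 CPM in untreated cells, edgeR adjusted p = 0.00886). FOXO4 (log2 0.334) and FOXO1 (log2 −0.212), named after their values were seen, were not called with pyruvate. FOXO3 and SESN3 were the 2 genes of the list called higher in AKB over pyruvate over all libraries (1.94% of all genes). FOXO3 had log2 0.327 there (edgeR adjusted p = 0.0291), and a link between FOXO3 and SESN3 was not tested. With AKB against untreated cells their signs differed, and neither was called over all libraries. FOXO3 had log2 −0.118 there (edgeR adjusted p = 0.498) and SESN3 0.432 (edgeR adjusted p = 0.289). With the offset 2 genes of the list were called higher with AKB (4.2% of all genes), and 3 without pyruvate replicates 3 and 4 (4.86%). TXNIP, an arrestin-like regulator of glucose uptake, was lower with AKB (log2 −0.666, edgeR adjusted p = 0.00104) and with pyruvate (log2 −0.685, edgeR adjusted p = 0.00115). Of 16 tested p53 targets, none was called with either compound against untreated cells by edgeR over all libraries. When the offset was used, and also when pyruvate replicates 3 and 4 were dropped, edgeR called CCNG1 and TP53INP1 higher and RRM2B and SESN2 lower with AKB, and SESN2 lower with pyruvate, where CCNG1 and RRM2B were named after their values were seen. Over all libraries DESeq2 called 1 higher and 1 lower with each, and at an unadjusted edgeR p below 0.05 there were 1 higher and 1 lower with AKB and 3 higher and 3 lower with pyruvate. TP53INP1 was higher in AKB over pyruvate (log2 0.792, edgeR adjusted p = 0.0135).

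The genes whose pattern over the 12 libraries was most like that of DDIT4, by the root mean square difference of centred log2 CPM among 10015 genes, were CHAC1 (0.26), ATF3 (0.304) and SLC7A5 (0.317). CHAC1 averaged 3.23 CPM with AKB, 4.42 CPM with pyruvate and 9.14 CPM in untreated cells. The nearest to SESN3 were ENPP3 (0.14), ARL6IP5 (0.149) and COG6 (0.15). ENPP3 averaged 29.4 CPM with AKB, 19.9 CPM with pyruvate and 25.8 CPM in untreated cells. The likeness rests on differences among the pyruvate libraries as well as among the groups.

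The authors' deposited tables put untreated over treated cells, so that a positive value there is a lower level with treatment. In the authors' deposited table DDIT4 had log2 1.44 (adjusted p = 1.01e-14) for untreated over AKB, and 1.00 (adjusted p = 6.2e-07) for untreated over pyruvate. The authors' deposited tables give SESN2 0.459 (adjusted p = 0.000947) for untreated over AKB and 0.422 (adjusted p = 0.00208) for untreated over pyruvate. Both are past the threshold that edgeR over all libraries missed. DESeq2 on the deposited counts passed it for AKB but not for pyruvate. SESN3 had log2 0.665 (adjusted p = 0.00206) for AKB over pyruvate in the authors' deposited table.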

How the data were processed

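Poly(A)-selected RNA was sequenced, per the labels' protocols, and the authors used Salmon 1.2.1, DESeq2 1.26.0 and R 3.6.3, per the submitters' processing notes. The sources used here do not give the genome build, annotation, settings or strand. The authors deposited estimated counts per gene, whole as deposited, so rounding changed none. The authors' deposited comparison tables hold log2 fold changes and p-values, per the file headers. Nothing in the labels says that replicates were separate cultures. The p-values therefore reflect only how these libraries vary, and that variation may be technical.

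Counts of all 12 libraries were fitted with edgeR 4.0.16 (quasi-likelihood test, R 4.3.3) with 1 term per group, TMM scaling and filterByExpr with a minimum count of 10. Adjusted p-values follow Benjamini-Hochberg over the 13598 genes tested, and calls are below 0.05. The offset was a natural spline with 5 degrees of freedom of the log2 CPM deviation on GC content. Identifiers matched a symbol for 95.2% of genes, and coordinates are those of GENCODE 29. Alternatives included DESeq2 1.42.0, limma-voom (limma 3.58.1), other scalings and filters and leaving out each library. The scripts were tested on simulated data. Genes, lists and tests were chosen with earlier results of these data known. The named genes were the listed regulators, up to 4 called genes per list and comparison by smallest adjusted p, ATF4 and the 3 genes most like each regulator called with an absolute log2 fold change of at least 0.5.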

Additional observations from a re-analysis of the deposited data

Results flagged for a closer look

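SESN1 in untreated cells had 1 library, replicate 4, at 19.3 CPM, apart from the other 3 at 23.4 to 23.7 CPM. The gap to the nearest library was 0.928 of the group's whole range, above Dixon's 95% critical value for 4 samples. It was 1 of 27 gene and group combinations tested, and chance flags about 1 in 20.

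SESN3 differed between the compounds, with a log2 fold change of 0.748 for AKB over pyruvate, which is the test of the difference between the 2 treatments. The value was 0.469 without pyruvate replicates 3 and 4 and 0.566 with the GC-content offset. The cause was not tested.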

How the results depend on the processing

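Across 9 genes, 3 comparisons and 23 alternatives, 539 values kept their direction and their side of the threshold, 27 passed only under the alternative, 21 lost their call and 34 changed sign. None of the values that changed sign was called. The cause of the changes below was not tested.

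With the GC-content offset, and with that offset and the replicate block, sign changes gave for AKB against untreated EIF4EBP1 −0.0737 and −0.076, FLCN −0.0362 and −0.0356 and TSC2 −0.0733 and −0.0737, and for pyruvate against untreated FLCN −0.0249 and −0.0285 and TSC2 −0.0951 and −0.0957. For AKB over pyruvate they gave SESN1 −0.0294 and −0.0216, SESN2 0.038 and 0.0372 and TSC2 0.0218 and 0.022. Without pyruvate replicates 3 and 4 they gave EIF4EBP1 −0.0356, FLCN −0.097 and TSC2 −0.0604 for pyruvate against untreated, and DDIT4 0.00943, SESN1 −0.194, SESN2 0.167, EIF4EBP1 0.104, RRAGC −0.0274, FLCN 0.128 and TSC2 0.0974 for AKB over pyruvate. Limma-voom gave SESN1 −0.0172 with pyruvate. Leaving out 1 library gave RRAGC −0.094 to 0.0103 with AKB, and SESN1 −0.109 to 0.113 with pyruvate and −0.0444 to 0.184 for AKB over pyruvate.

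For AKB against untreated, the count of the 9 genes called higher was 0 and became 1 with the GC-content offset, with that offset and the block, with the 8 libraries alone and without pyruvate replicates 3 and 4, and 1 lower became 2 in these and by DESeq2. For pyruvate, 1 lower became 2 with the offset, with or without the block, and without replicates 3 and 4, and 0 with the 8 libraries alone. For AKB over pyruvate, 1 higher became 2 with the offset, with or without the block, and 0 without a filter or with the 8 libraries alone, and 0 lower became 1 with the offset, with or without the block. Leaving out 1 library gave 1 to 2 lower with AKB, 0 to 2 higher and 0 to 2 lower with pyruvate, and 0 to 2 higher and 0 to 1 lower for AKB over pyruvate.

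Over all genes, AKB gave 186 higher and 82 lower. These became 334 and 196 by DESeq2, 571 and 584 with the GC-content offset, 471 and 492 with that offset and the block, 709 and 630 with the 8 libraries alone, 677 and 601 without pyruvate replicates 3 and 4, and 57 to 250 and 34 to 107 leaving out 1 library. Pyruvate gave 139 higher and 126 lower. These became 1086 and 738 by DESeq2, 73 and 79 without a filter, 692 and 568 with the offset, 765 and 646 with the offset and the block, 2 and 14 with the 8 libraries alone, 21 and 78 without pyruvate replicates 3 and 4, and 1 to 1931 and 31 to 1680 leaving out 1 library. Limma-voom gave 90 higher. AKB over pyruvate gave 264 higher and 162 lower. These became 636 and 891 by DESeq2, 145 and 69 without a filter, 942 and 1093 with the offset, 893 and 1095 with the offset and the block, 6 and 0 with the 8 libraries alone, and 61 to 922 and 7 to 1189 leaving out 1 library. Library size alone gave 93 lower, and leaving out pyruvate replicates 3 and 4 gave 257 lower.

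Samples share only a replicate number. Same-numbered deviations correlated at −0.0996 to 0.202, with 3 of 12 pairs over 0.1, and 7 of 24 tests were highest for a sample's own number. With the replicate block, AKB gave 111 higher and 47 lower and pyruvate 306 higher and 259 lower over all genes. The block left the counts among the 9 genes as they were. SESN3, at 4.44 to 12.8 CPM, has the fewest counts of the 9 and so the least precision per library.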

Other observations

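For AKB over pyruvate, the authors' deposited table and the count test gave different signs for 2 of the 9 genes. FLCN had log2 0.114 in the authors' deposited table and −0.112 by edgeR, and TSC2 had 0.0277 in the authors' deposited table and −0.131 by edgeR. For 5 of the 9 genes the value in the authors' deposited table lay between the count-based values without and with the GC-content offset. DDIT4 had −0.439 in the authors' deposited table, −0.481 by edgeR without the offset and −0.329 with it.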
